A study of Homo sapiens with 6 samples.

Results

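TEM2-5 is a human line isolated from PC-3 prostate cancer cells that had crossed a confluent layer of lung microvascular endothelial cells. Its expression was set against that of the parental PC-3 line, an androgen-independent line established from a bone metastasis. The comparison used 4 of the 6 arrays of the series, which were all arrays labelled TEM2-5 (2) or PC-3 (2). Probe sets that were no control and passed a filter on low signals were tested. Genes were read from those with exactly 1 gene symbol. The other 2 arrays held TEM4-18, which came from the first migration experiment, while TEM2-5 came from a second one. No drug, transgene or knockdown was named for any line, and all 3 were grown in the same serum-containing DMEM/F12 medium. TEM2-5 is thus 1 isolate of 1 parental line, and the labels do not say whether its 2 arrays came from separate cultures. The p-values therefore rest on how far these arrays differ within a line, and that difference may be technical only.

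Crossing an endothelial layer is the step by which a tumour cell leaves or enters a blood vessel. Epithelial cells are held together by adherens junctions built on E-cadherin, by tight junctions and by desmosomes, and they are given their identity by transcription factors such as those of the GRHL, OVOL and ELF families and by the splicing factor ESRP1. In an epithelial-mesenchymal transition (EMT) the repressors of the ZEB, SNAI and TWIST families lower these genes, in part by binding the E-box CACCTG in their promoters, while genes of the cytoskeleton and extracellular matrix rise. PC-3 keeps many epithelial genes although it also makes the mesenchymal filament protein vimentin.

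Signals are linear array units as deposited. Differences are log2(signal + 51.8), TEM2-5 minus PC-3, with the standard error (SE) of the fit, and adjusted p-values come from limma, adjusted after Benjamini and Hochberg over every probe set tested. A change is a difference with an adjusted p under 0.05, and folds are ratios of the mean signals of 2 arrays. Where a line's mean signal lay under 174, the filter set on the mean of all arrays, the size of the difference depends on the added 51.8, and signals with the adjusted p are given in place of a fold. The median signal of the TEM2-5 arrays was 310 and 281, and that of the PC-3 arrays 317 and 282. Ratios of 3' to 5' probe sets ran from 1.14 to 1.22 for ACTB and from 0.923 to 0.986 for GAPDH over the 6 arrays. The epithelial markers KRT18, KRT8, EPCAM and CDH1 all gave PC-3 signals of 14396 or more. KLK3, the prostate-specific antigen that this androgen-independent line is known to lack, read 1301 and 770 in PC-3 and 1102 and 1016 in TEM2-5. A signal of this size, though above 174, therefore does not show by itself that a gene is expressed.

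TEM2-5 differed from PC-3 in 2593 of 13621 tested genes (19.0%). Of these, 1223 were higher in TEM2-5 (8.98% of tested genes) and 1370 were lower (10.1%). At least 2-fold differences were less even, with 236 genes higher (1.73%) and 435 lower (3.19%). The median difference over all tested genes was -0.024. By probe set, with or without a gene symbol, 5325 of 32768 changed (16.3%). Of 1639 changed genes with several tested probe sets, 418 had the same call on every one, and 78 genes had probe sets that changed in opposite directions. Where no count of agreeing probe sets is given for a gene below, agreement is not implied. Leaving out the second TEM2-5 array left 685 genes higher and 761 lower, and leaving out the first left 701 and 796. Without either PC-3 array the lower count was 901 or 775. The fit lets the expected spread depend on the signal (a mean-variance trend), and without that trend 453 genes were higher and 581 lower. Of the changes of named genes, 95 of 265 then missed the threshold, and 34 of 66 list counts moved by over 1.5 times. That setting alone ended the calls of CLDN7, VIM, COL6A1, ITGA1, ST3GAL1, PMEPA1, HMGCS1 and further named genes against PC-3, ANXA5 and TYMS among them. Adjusted p-values of the calls lost in this way ran from 0.05025 for ITGA1 to 0.1203 for TYMS.

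**Figure D1:**
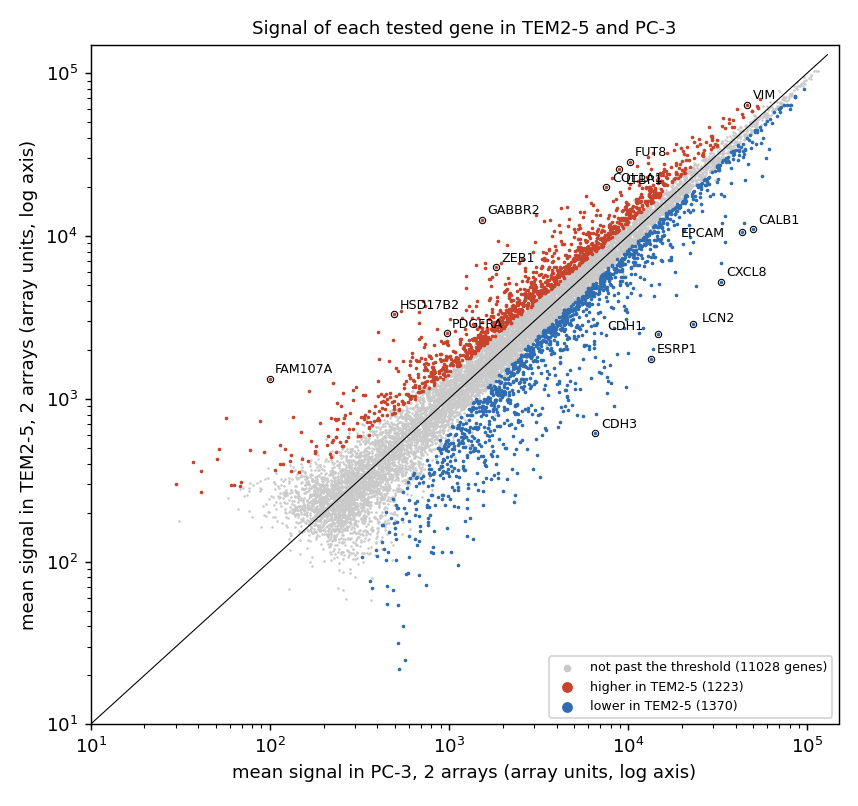
Mean signal of each tested gene in PC-3 (horizontal) and TEM2-5 (vertical), 2 arrays a line, array units on log axes; red points were higher and blue points lower in TEM2-5 past the threshold, grey points did not pass, and the line marks equal signals. LCN2, CXCL8, CALB1 and EPCAM, with PC-3 signals of 20323 or more on each array, lie well below the line, and GABBR2 lies 8.24-fold above it.

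Genes of epithelial cell contacts included E-cadherin and P-cadherin among those lower in TEM2-5. Of 12 tested genes of adherens junctions and nectins, 5 were lower and 1 higher, with a median difference of -0.22. CDH1, which encodes E-cadherin, read 14396 and 15147 on the PC-3 arrays and 2520 and 2479 on the TEM2-5 arrays, a 5.91-fold fall (log2 -2.54, SE 0.17, adjusted p = 1.11e-05). Both TEM2-5 arrays lay far below both PC-3 arrays. On the TEM4-18 arrays the gene read 25.7 and 57.8, and TEM2-5 was higher than TEM4-18 (adjusted p = 1.13e-07). P-cadherin, encoded by CDH3, fell further, from 6809 and 6358 to 569 and 660 (10.7-fold; log2 -3.32, SE 0.19, adjusted p = 4.58e-06). JUP, the plakoglobin shared by adherens junctions and desmosomes, fell 2.89-fold (log2 -1.52, SE 0.15). The count of lower genes in this list was 3 without the second PC-3 array, without the first TEM2-5 array, without the trend or with all probe sets of a gene averaged. CTNNB1, which encodes beta-catenin and links cadherins to the cytoskeleton, read 11458 and 10367 in PC-3 and 11240 and 12201 in TEM2-5 and did not pass (log2 0.10, adjusted p = 0.466).

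Tight junction genes showed a larger shift than adherens junction genes by their median, which was -1.07 over 21 tested genes, with 12 lower and 1 higher. LSR, the receptor that marks tricellular junctions, read 6965 and 6321 in PC-3 and 584 and 1028 in TEM2-5 (8.24-fold lower; log2 -3.01, SE 0.27, adjusted p = 5.21e-05). The transmembrane proteins OCLN and CLDN7 fell 4.62-fold and 4.95-fold, and the virus receptor and junction protein CXADR 4.76-fold. CRB3, which sets the apical side of the cell, went from 1806 and 1780 to 313 and 368 (5.27-fold; log2 -2.24, SE 0.26, adjusted p = 0.000279). The higher member was PALS1, a scaffold that CRB3 binds (log2 0.84). For OCLN, 2 of 4 tested probe sets changed in this direction, and for CXADR 3 of 4. CLDN7 had an adjusted p of 0.0559 without the mean-variance trend.

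Desmosomes, the spot contacts that anchor keratin filaments, had 6 of 10 tested genes lower and 2 higher (median -0.48). Their cytoplasmic plaque protein DSP read 17593 and 17193 in PC-3 and 7756 and 7195 in TEM2-5, a 2.33-fold fall (log2 -1.21, SE 0.086, adjusted p = 1.5e-05). The plaque protein PKP3 fell 1.89-fold and the cross-linker PPL 2.94-fold. DSC2, a desmosomal cadherin, did not pass (log2 -0.06, adjusted p = 0.87). Keratins were lower in 7 of 8 tested genes and higher in 0, with a median of -1.01, and 4 were lower without the trend. KRT7, a keratin of simple epithelia, went from 39692 and 49494 to 10528 and 13608 (3.7-fold; log2 -1.88, SE 0.18, adjusted p = 8.79e-05), although 1 of its 3 tested probe sets made this call. KRT8, another such keratin, went from 23433 and 22688 to 9416 and 9037 (2.5-fold; log2 -1.32, SE 0.097, adjusted p = 1.88e-05). In TEM2-5 KRT7 still lay above the 95th percentile of signals on its array, which was 10062 and 10133.

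Surface and trafficking proteins of epithelial cells were lower in 24 of 28 tested genes and higher in 1, with a median of -1.89. EPCAM, an epithelial adhesion molecule, read 44612 and 42292 in PC-3 and 10854 and 10398 in TEM2-5 (4.09-fold lower; log2 -2.03, SE 0.094, adjusted p = 1.83e-06). CD24, a mucin-like surface protein, fell 2.63-fold on its brightest probe set, and its 6 tested probe sets made the same call. The membrane protease matriptase, encoded by ST14, went from 6527 and 8716 to 893 and 1275 (7.03-fold; log2 -2.76, SE 0.27, adjusted p = 8.79e-05). Its signals in TEM2-5 lay above those of TEM4-18, 49.2 and 120, (adjusted p = 0.000138). C1orf116 fell 9.31-fold (log2 -3.16, SE 0.3), and S100A14, a calcium-binding protein of epithelia, 6.43-fold (log2 -2.63, SE 0.19). Between 19 and 24 genes of this list were lower when any single array was left out.

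Regulators of the epithelial state were lower in 16 of 18 tested genes and higher in 1 (median -1.49). ESRP1, which directs epithelial splicing, read 12778 and 14293 in PC-3 and 1720 and 1803 in TEM2-5, a 7.68-fold fall (log2 -2.90, SE 0.15, adjusted p = 2.44e-06). In TEM4-18 it read 22.0 and 34.3, and TEM2-5 was higher than TEM4-18 (adjusted p = 8.58e-08). OVOL2, a zinc-finger repressor of EMT factors, went from 4530 and 4103 to 807 and 876 (5.13-fold; log2 -2.29, SE 0.17, adjusted p = 2.04e-05). The ETS factor EHF fell 4.88-fold, from 8269 and 7560 to 1817 and 1426. FOXA2, a forkhead factor of endoderm, was the 1 gene of the list that rose, from 2255 and 1960 to 8903 and 8815 (4.2-fold; log2 2.05, SE 0.096, adjusted p = 1.86e-06). It did so on 2 of its 3 tested probe sets. Its relative FOXA1, another forkhead factor, fell in the fit of all arrays (log2 -1.66), but its adjusted p was 0.219 without the second TEM2-5 array, when the difference was -0.99.

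Promoter sequences of the genes that fell in these 6 epithelial lists were searched for the E-box to which ZEB and SNAI repressors bind, CACCTG or its reverse complement CAGGTG. These are the same site on opposite strands and cannot overlap each other. The window was the 250 bases before each annotated start in RefSeq (GRCh38.p14), and 42 of the 69 genes had an entry, with 65 promoters. CDH1, CDH3, EPCAM and ESRP1 had none. The 3 promoters printed here belong to genes that fell by at least 2 on the log2 scale and held at least 3 sites. They were chosen after the values were seen, to show how densely the site can lie near a start; capitals mark the site.
CLDN7, chr17:7262479-7262728, minus strand: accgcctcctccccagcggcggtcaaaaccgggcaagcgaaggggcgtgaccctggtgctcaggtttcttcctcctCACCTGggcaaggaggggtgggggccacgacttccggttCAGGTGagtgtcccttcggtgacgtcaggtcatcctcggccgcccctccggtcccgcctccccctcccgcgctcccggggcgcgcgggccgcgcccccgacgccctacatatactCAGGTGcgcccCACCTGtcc
CRB3, chr19:6464021-6464270, plus strand: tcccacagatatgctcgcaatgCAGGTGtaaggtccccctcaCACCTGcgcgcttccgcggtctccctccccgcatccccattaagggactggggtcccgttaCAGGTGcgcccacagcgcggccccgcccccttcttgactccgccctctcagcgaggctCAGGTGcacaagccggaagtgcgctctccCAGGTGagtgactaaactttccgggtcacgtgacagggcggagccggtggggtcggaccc
AP1M2, chr19:10587313-10587562, minus strand: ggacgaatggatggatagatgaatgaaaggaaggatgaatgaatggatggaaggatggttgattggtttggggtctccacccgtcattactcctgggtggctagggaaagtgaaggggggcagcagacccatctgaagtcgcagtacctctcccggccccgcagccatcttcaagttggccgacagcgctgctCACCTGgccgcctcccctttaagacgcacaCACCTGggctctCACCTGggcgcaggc

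CLDN7 held 4 such sites, CRB3 5 and AP1M2 3. AP1M2, the epithelial subunit of a sorting adaptor, read 3419 and 3432 in PC-3 and 749 and 580 in TEM2-5 (5.16-fold lower; log2 -2.29, SE 0.22, adjusted p = 8.79e-05). At least 1 site was present in 29 of the 65 promoters of falling epithelial genes (44.6%). The share was 17.2% of 29 promoters of list members that did not pass, and 22.3% of promoters of all genes lower in TEM2-5. It was 16.3% over promoters of all tested genes and 17.5% over all 35116 promoters in the table. LSR and EHF fell without the site in this window, which says only that the letters were not found there. Counted by gene, 27 of the 42 (64.3%) had a site in at least 1 promoter, beside 21.1% of all tested genes with an entry.

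Transcription factors of EMT were higher in 6 of 9 tested genes and lower in 0 (median 0.64). ZEB1, a zinc-finger repressor of CDH1, read 1859 and 1824 in PC-3 and 6244 and 6594 in TEM2-5 (3.49-fold higher; log2 1.77, SE 0.095, adjusted p = 2.51e-06). Its TEM4-18 signals were 6866 and 7074, and the lines differed by -0.12 (adjusted p = 0.7). TWIST2, a basic helix-loop-helix factor, rose 2.82-fold, from 550 and 493 to 1498 and 1444 (log2 1.41, SE 0.15, adjusted p = 0.000203). The factors TCF4 and ETS1 rose 1.65-fold and 1.56-fold, on 2 of 8 and 2 of 3 tested probe sets. SNAI2 and TWIST1 passed in the fit of all arrays (log2 0.64 and 0.42), but without the second TEM2-5 array their adjusted p was 0.289 and 0.149. The list held 4 higher genes without the second PC-3 array. ZEB2 and SNAI1 lay below the filter on low signals and were not tested.

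Mesenchymal and cytoskeletal genes moved both ways, with 9 of 34 tested genes higher, 4 lower and a median of 0.01. FBN1, a microfibril glycoprotein, read 1365 and 2017 in PC-3 and 5425 and 5496 in TEM2-5 (3.23-fold; log2 1.69, SE 0.16, adjusted p = 7.04e-05). LOXL2, which cross-links collagen, went from 8733 and 9378 to 17766 and 19756 (2.07-fold; log2 1.05, SE 0.08, adjusted p = 2.09e-05). Vimentin was already bright in the parental line, and VIM rose 1.38-fold, from 45941 and 47129 to 65699 and 62581 (log2 0.46, SE 0.055, adjusted p = 0.000333), on 1 of 2 tested probe sets. N-cadherin and fibronectin, the usual mesenchymal partners of CDH1 loss, did not pass: CDH2 read 7685 and 8187 against 6873 and 9025 (log2 -0.01, adjusted p = 0.973), and FN1 differed by 0.03 (adjusted p = 0.908). Among the 4 lower members were the proteoglycan VCAN, down 3.19-fold from 3780 and 4444 to 1063 and 1513 (log2 -1.65, SE 0.18, adjusted p = 0.000226), and the actin-binding TPM1, down 1.64-fold.

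**Figure D2:**
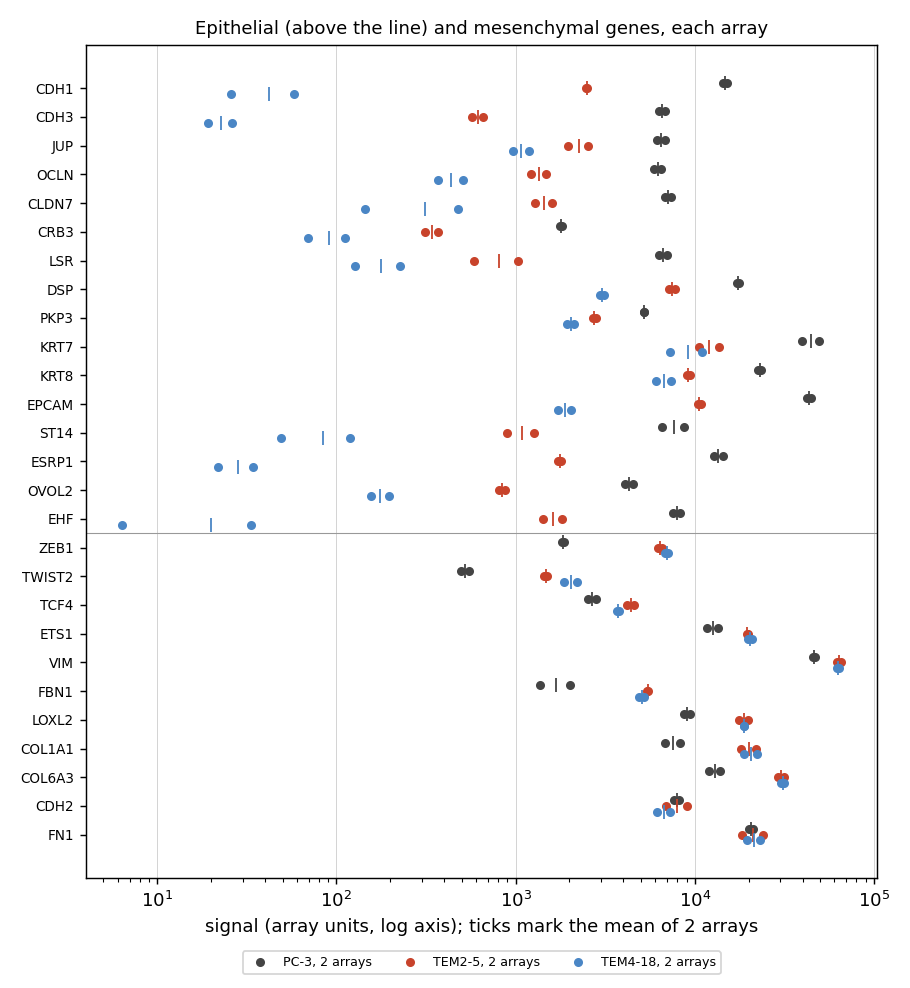
Signal (array units, log axis) of 16 epithelial genes above the line and 11 mesenchymal genes below it on each array, with 2 points a line and ticks at the means. TEM2-5 (red) lay between PC-3 (dark) and TEM4-18 (blue) for every epithelial gene shown except KRT7, whose TEM arrays overlapped, and beside TEM4-18 for ZEB1, VIM, LOXL2, COL1A1 and COL6A3.

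Collagen genes were higher in 9 of 19 tested genes and lower in 1 (median 0.60). COL1A1, the main fibrillar collagen, read 6869 and 8299 in PC-3 and 18052 and 21920 in TEM2-5 (2.64-fold; log2 1.39, SE 0.12, adjusted p = 5.09e-05), on 3 of 5 tested probe sets. The microfibrillar collagen gene COL6A3 rose 2.35-fold, from 12064 and 13904 to 29205 and 31699 (log2 1.23, SE 0.082, adjusted p = 1.04e-05). COL6A1 rose 1.64-fold, on 2 of 5 tested probe sets, with an adjusted p of 0.0635 without the trend. The higher count was 5 without the first PC-3 array or without the second TEM2-5 array, and 4 without the trend. Of the hemidesmosome and laminin genes, 3 of 12 were lower (1 without the trend) and 0 higher. ITGB4, the integrin subunit that anchors epithelium to its basement membrane, fell from 6876 and 7859 to 1944 and 1188 (4.7-fold; log2 -2.23, SE 0.2, adjusted p = 5.28e-05). Its TEM4-18 signals were lower again, 522 and 559 (adjusted p = 0.00465 for the difference).

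Other integrins gave 2 of 14 tested genes higher (0 without the trend) and 3 lower. ITGA1, a collagen receptor subunit, rose from 480 and 539 to 1922 and 1151 (3.02-fold; log2 1.46, SE 0.24, adjusted p = 0.00215). ITGB8, which binds latent TGF-beta, fell 2.73-fold (log2 -1.42, SE 0.15), and ITGAV, its partner subunit, 1.56-fold. Molecules by which leukocytes and tumour cells hold on to endothelium gave 3 of 24 higher and 2 lower, beside 8.98% and 10.1% over all genes. Among them CD99L2, a relative of a protein used in leukocyte passage, rose from 1370 and 1415 to 2773 and 2953 (2.06-fold, log2 1.01, SE 0.12, adjusted p = 0.000251), on 3 of 4 tested probe sets. The sialyltransferases ST3GAL1 and ST3GAL4, which cap sugar chains, moved in opposite directions, 1.72-fold higher and 2.12-fold lower. CD44, the hyaluronan receptor, passed on 1 of its 12 tested probe sets (log2 0.26, SE 0.077, adjusted p = 0.0429). Its adjusted p was 0.281 without the second TEM2-5 array, and the mean of all its probe sets was lower in TEM2-5 (log2 -0.46).

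Chemokines, which are secreted attractants of leukocytes, and their receptors had 6 of 11 tested genes lower and 2 higher (median -1.13). CXCL8, which attracts neutrophils and acts on endothelium, read 35072 and 30831 in PC-3 and 5352 and 5105 in TEM2-5 (6.3-fold lower; log2 -2.64, SE 0.13, adjusted p = 2.09e-06). Its neighbour CXCL1 fell 5.28-fold, from 9564 and 10558 to 1718 and 2091 (log2 -2.37, SE 0.13, adjusted p = 2.51e-06). ACKR3, a scavenging receptor for CXCL12, rose 2.32-fold, from 341 and 432 to 852 and 945 (log2 1.12, SE 0.19, adjusted p = 0.00297). CXCL12 itself was higher by 1.17 with all arrays (adjusted p = 0.00804) and missed the threshold without the second TEM2-5 array (adjusted p = 0.0806).

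In the list of interleukins, their receptors and targets of NF-kappaB, 14 of 36 tested genes were lower and 4 higher (median -0.25). LCN2, an iron-sequestering secreted protein, read 20323 and 25840 in PC-3 and 2972 and 2764 in TEM2-5 (8.05-fold lower; log2 -2.98, SE 0.15, adjusted p = 2.09e-06). The decoy receptor gene IL1R2 fell 9.98-fold, from 1774 and 2845 to 125 and 338 (log2 -3.13, SE 0.42, adjusted p = 0.000718). Its arrays were further apart within a line than those of LCN2. Without the second PC-3 array or either TEM2-5 array, 2 genes of this list were higher, and without the trend 0. The elastase inhibitors PI3 and SLPI fell 4.85-fold and 4.65-fold. PI3 read 31743 and 34646 in PC-3, 6475 and 7203 in TEM2-5 and 288 and 299 in TEM4-18, which gave TEM2-5 an excess of 4.32 over TEM4-18 (SE 0.1, adjusted p = 7.3e-09).

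Interferon-stimulated genes were lower in 26 of 47 tested genes and higher in 1 (median -0.66). IFI27, a mitochondrial interferon response protein, read 3990 and 2438 in PC-3 and 478 and 179 in TEM2-5 (9.79-fold lower; log2 -3.18, SE 0.38, adjusted p = 0.000328). Without 1 array its difference ranged from -3.78 to -2.58, the smaller fall without the first PC-3 array. The RNA sensor IFIH1 fell 4.18-fold and the antiviral enzyme OAS1 3.8-fold, while the antiviral GTPase MX1 went from 4330 and 3703 to 1574 and 904 (3.24-fold; log2 -1.70, SE 0.22, adjusted p = 0.000625). GBP2, a guanylate-binding protein, was the higher member (log2 1.01), with an adjusted p of 0.165 without the first TEM2-5 array. The lower count of 26 became 15 without the second TEM2-5 array 17 without the first PC-3 array and 13 without the trend. Antigen presentation genes had 4 of 20 lower and 0 higher, and 2 lower without the second PC-3 array or without the trend. The class I heavy chains HLA-B and HLA-C fell 1.65-fold and 1.58-fold, and as near-identical relatives they may share probe signal.

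Proteases and their inhibitors moved both ways, with 12 of 38 tested genes lower and 8 higher (median -0.14). The higher count was 4 without the trend and 5 with all probe sets of a gene averaged. The secreted kallikrein KLK5 read 4569 and 5827 in PC-3 and 758 and 836 in TEM2-5 (6.52-fold lower; log2 -2.62, SE 0.17, adjusted p = 9.93e-06), and KLK6 fell 5.45-fold. Within the cystatins, which inhibit cysteine proteases, CST6 fell 6.06-fold, from 3420 and 4697 to 755 and 585 (log2 -2.50, SE 0.2, adjusted p = 3.08e-05). CST1 rose 6.43-fold, from 336 and 469 to 3325 and 1853 (log2 2.50, SE 0.25, adjusted p = 0.000124), and its close relative CST4 1.98-fold. The salivary cystatins are near-identical in sequence, so that their probe sets may read one another. The metalloprotease gene ADAM12 rose 3.2-fold, on 2 of 4 tested probe sets, and the androgen-regulated serine protease gene TMPRSS2 rose 2.89-fold, from 921 and 529 to 2127 and 2061 (log2 1.51, SE 0.21, adjusted p = 0.000931).

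Growth factor receptors and their ligands gave 8 of 39 tested genes lower and 5 higher (median -0.30). The EGF-family ligand TGFA read 9391 and 9709 in PC-3, 3659 and 3760 in TEM2-5 and 345 and 217 in TEM4-18 (2.57-fold lower than PC-3; log2 -1.35, SE 0.17, adjusted p = 0.000447). The receptor ERBB3 fell 3.39-fold, on 2 of 4 probe sets. The higher count of this list was 2 without the first TEM2-5 array, 3 without the first PC-3 array and 0 without the trend, when 5 were lower. IGFBP2, which binds insulin-like growth factors, fell 5.41-fold, from 3169 and 2988 to 605 and 532 (log2 -2.34, SE 0.23, adjusted p = 9.24e-05). Of the Eph receptors, ephrins and semaphorins, 4 of 35 were higher (11.4%) and 6 lower (17.1%), beside 8.98% and 10.1% over all tested genes. EPHA7 rose from 141 and 87.5 to 541 and 502 (adjusted p = 0.00181), whereas EPHA1 fell 3.35-fold, from 1916 and 1880 to 646 and 486 (log2 -1.67, SE 0.28).

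TGF-beta and BMP genes had 9 of 36 tested members higher and 8 lower, with a median of 0.01. LTBP1, which stores latent TGF-beta in the matrix, read 8466 and 9303 in PC-3 and 27213 and 24242 in TEM2-5 (2.9-fold; log2 1.53, SE 0.088, adjusted p = 4.07e-06). The ligand TGFB2 fell 2.99-fold, from 6113 and 6781 to 1956 and 2355 (log2 -1.56, SE 0.16, adjusted p = 0.000113). PMEPA1, a target and inhibitor of the pathway, fell 3.15-fold. Without the first TEM2-5 array 5 genes were higher and 5 lower. The lower count was also 5 without the first PC-3 array or the second TEM2-5 array, and the higher count was 4 without the trend.

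WNT and Notch genes had 12 of 38 tested members lower and 7 higher (median -0.20). LGR5, a receptor that strengthens WNT signalling in stem cells, read 6.34 and 108 in PC-3 and 737 and 777 in TEM2-5 (adjusted p = 0.00046). The PC-3 signals lay in the noisy low range, and the fitted difference was 4.74 with a pseudocount of 1 and 1.89 with 4 times the pseudocount. In the Notch pathway the receptor NOTCH3 fell 4.26-fold, from 1248 and 1316 to 236 and 366 (log2 -1.94, SE 0.31, adjusted p = 0.00211), and the ligand JAG2 3.13-fold. The target HES4 fell 2.82-fold, while the target HEY1 rose 2.72-fold, from 5292 and 4080 to 13837 and 11657 (log2 1.44, SE 0.13, adjusted p = 6.25e-05). The lower count was 7 without either PC-3 array or the second TEM2-5 array. The higher count was 3 without the first TEM2-5 array and 4 without the second PC-3 array. Without the trend 6 were lower and 3 higher.

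Feedback regulators and early targets of MAP kinase signalling gave 5 of 26 tested genes higher and 6 lower (median -0.01). SPRY4, an inhibitor of receptor signalling, rose from 3250 and 2848 to 9816 and 8502 (3-fold; log2 1.57, SE 0.13, adjusted p = 4.23e-05), and the phosphatase gene DUSP5 rose 2.15-fold. The AP-1 subunits split: JUN rose from 6728 and 6551 to 13289 and 13474 (2.02-fold; log2 1.01, SE 0.075, adjusted p = 2.04e-05), and JUNB fell 2.42-fold, from 3011 and 2961 to 1395 and 1067 (log2 -1.26, SE 0.17). ATF3, a stress-induced factor, fell 5.52-fold on its brightest probe set, with 1 of 3 tested probe sets making the call.

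Hypoxia and glycolysis genes were lower in 7 of 32 tested genes and higher in 0 (median -0.14; 4 lower without the trend), among them the vasodilator peptide ADM, which read 3149 and 3972 in PC-3 and 1146 and 974 in TEM2-5 (3.36-fold; log2 -1.70, SE 0.16, adjusted p = 7.53e-05), and the glucose transporter SLC2A1 (2.45-fold). Cholesterol and fatty acid synthesis had 11 of 27 lower and 0 higher (median -0.31). HMGCS1, which makes the precursor of mevalonate, fell from 4513 and 3268 to 1706 and 2131 (2.03-fold; log2 -0.99, SE 0.17, adjusted p = 0.00277). This lower count was 4 without the second TEM2-5 array, 6 without the first, 5 without the first PC-3 array, 3 without the trend, 7 without the filter on low signals and 6 with all probe sets of a gene averaged. Genes of the ATF4 and unfolded protein responses were lower in 6 of 30 tested genes and higher in 1; the pseudokinase TRIB3 fell 2.31-fold and the serine synthesis enzyme PSAT1 1.81-fold. Without the second TEM2-5 array or without the trend 3 were lower.

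Antioxidant and xenobiotic genes were lower in 9 of 31 tested genes and higher in 6 (median -0.24). The higher members included 5 metallothioneins, metal-binding proteins whose family members can share probe signal, with differences from 0.34 for MT2A to 0.74 for MT1H, which was 0.49 without the first PC-3 array. MT1F, MT1G, MT1H and MT1X missed the threshold without the trend, with adjusted p-values of 0.0626 to 0.154, and the higher count of the list was then 1. MT1X also missed it without either TEM2-5 array. HSD17B2, which inactivates sex steroids, rose most, from 586 and 407 to 3560 and 3035 (6.64-fold; log2 2.63, SE 0.18, adjusted p = 1.11e-05). The retinoic acid enzyme ALDH1A3 fell from 53827 and 58032 to 21947 and 24812 (2.39-fold, log2 -1.26, SE 0.12, adjusted p = 8.63e-05), on 1 of 2 tested probe sets. The lower count was 4 without the second PC-3 array, 5 without the second TEM2-5 array and 2 without the trend. Cell cycle and replication genes gave 7 of 44 lower (15.9%) and 4 higher (9.09%), beside 10.1% and 8.98% over all tested genes, with a median of -0.06. Of these, 0 were lower without the first TEM2-5 array, 2 without the second and 3 without either PC-3 array, and 2 were higher without the first TEM2-5 array or either PC-3 array. Without the trend 0 changed in either direction, and without the filter on low signals 3 were lower and 2 higher. Of that list CDKN2B, a cyclin-dependent kinase inhibitor, differed most among the higher members (log2 1.08), on 1 of 2 tested probe sets. Without 1 array its difference ranged from 0.79 to 1.36. It missed the threshold without the trend, with all probe sets of a gene averaged, and without the second PC-3 array or the first TEM2-5 array.

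Neuronal genes were higher in 7 of 26 tested genes and lower in 3 (median 0.22). GABBR2, a subunit of the GABA-B receptor, read 1532 and 1526 in PC-3 and 13067 and 12143 in TEM2-5 (8.24-fold; log2 3.00, SE 0.088, adjusted p = 1.63e-07), on all 4 of its tested probe sets. TAGLN3, a neuronal actin-binding protein, rose 5.57-fold, from 803 and 635 to 4596 and 3410 (log2 2.39, SE 0.18, adjusted p = 2.05e-05). CALB1, the calcium buffer calbindin, moved the other way, from 50899 and 49404 to 9899 and 12086 (4.56-fold; log2 -2.19, SE 0.14, adjusted p = 7.96e-06). It read 179 and 124 in TEM4-18, and TEM2-5 was higher than TEM4-18 (adjusted p = 7.3e-09). ELAVL2 and MAPT were lower too, but missed the threshold when any single array of PC-3 or TEM2-5 was left out. The higher count was 4 without the second PC-3 array or either TEM2-5 array.

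Genes of the prostate lineage were lower in 8 of 17 tested genes and higher in 3, but the lower group included KRT8, KRT18 and FOXA1, which also stand in the epithelial lists. Without the trend 5 were lower and 1 higher. STEAP4, a metalloreductase, fell from 1300 and 1112 to 448 and 329 (3.11-fold; log2 -1.52, SE 0.26, adjusted p = 0.0029). The homeobox gene HOXB13, a marker of prostate, was higher by 0.44 with all arrays and missed the threshold without the second PC-3 array (difference 0.25, adjusted p = 0.168). S100 proteins and annexins had 7 of 21 lower and 1 higher. S100P, a secreted calcium-binding protein, read 2765 and 3100 in PC-3, 1013 and 599 in TEM2-5 and 28.8 and 32.2 in TEM4-18 (3.64-fold lower than PC-3; log2 -1.84, SE 0.26, adjusted p = 0.000911).

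**Figure D3:**
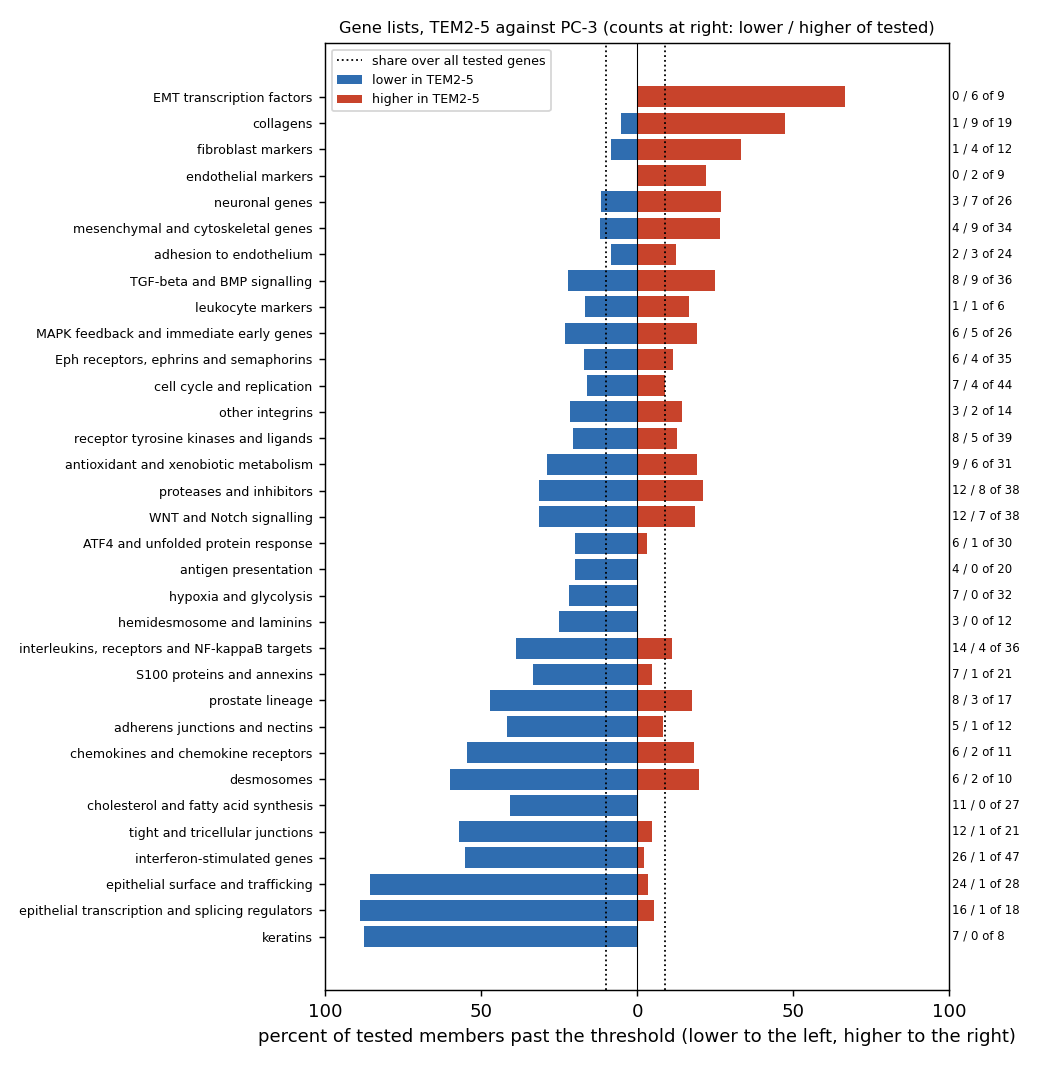
Percent of each list's tested genes that were lower (blue, left) or higher (red, right) in TEM2-5 than in PC-3, with counts at the right edge; dotted lines mark the shares over all tested genes, 10.1% lower and 8.98% higher. Keratins, epithelial regulators and epithelial surface genes reach furthest to the left and EMT transcription factors furthest to the right. Of 21 counts of 1 to 3 genes, 15 moved by over 1.5 times without at least 1 array.

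Large rises outside these lists began from both low and moderate PC-3 signals. FAM107A, an actin-binding stress protein, read 14.9 and 185 in PC-3 and 1220 and 1432 in TEM2-5 (adjusted p = 0.000537), on 1 of 2 tested probe sets. Its PC-3 mean lay under the filter, and the fitted difference was 4.60 with a pseudocount of 1 and 2.37 with 4 times the pseudocount. PREX1, an activator of the small GTPase Rac, rose 4.99-fold, from 638 and 726 to 3421 and 3388 (log2 2.24, SE 0.13, adjusted p = 5.02e-06). GNG2, a G-protein gamma subunit, rose 4.91-fold, from 1978 and 1806 to 9366 and 9226 (log2 2.27, SE 0.093, adjusted p = 1.79e-06). DGKG and F2RL2, a lipid kinase and a thrombin receptor, rose from signals of 64.8 or less in PC-3 to signals of 358 or more. Also among the 15 largest rises were the transcription factor GLIS3 (5.07-fold) and the lectin CLEC2B, which read 154 and 177 in PC-3 and rose on 1 of 2 tested probe sets.

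Among genes in the top 5% of signal, FUT8, which adds core fucose to glycoproteins, read 10497 and 9969 in PC-3 and 29136 and 28231 in TEM2-5 (2.8-fold; log2 1.48, SE 0.067, adjusted p = 1.83e-06). FERMT2, a kindlin that activates integrins, rose 2.78-fold, and MAX, the partner of MYC, 2.41-fold. The abundant falls included THBS1, an antiangiogenic matrix protein, from 21229 and 26727 to 4163 and 5726 (4.85-fold; log2 -2.27, SE 0.15, adjusted p = 1.15e-05), and LXN, a carboxypeptidase inhibitor, down 3.79-fold from 38328 and 31607 to 9759 and 8677. ST6GALNAC5, a sialyltransferase, was among the 15 largest falls, from 986 and 1262 to 69.6 and 122 (adjusted p = 0.000315). In TEM4-18 it read 101 and 138, a difference from TEM2-5 that did not pass (log2 -0.23, adjusted p = 0.869). The long noncoding RNA LNCAROD fell 8.26-fold, from 9951 and 9468 to 1184 and 1167.

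Several of these genes lie near each other. Windows of 15 consecutive tested genes were ranked by their median difference, for which the 1st and 99th percentiles over 13264 windows were -0.39 and 0.41. The 3 highest windows that did not overlap all lay on chromosome 14. From NIN to STYX the median was 0.80, with 13 of 15 genes higher and 1 lower. From ZBTB1 to ATP6V1D it was 0.78, with 9 higher, MAX and FUT8 among them, and 0 lower. From GCH1 to NAA30 it was 0.66, with 11 higher and 2 lower. Over the whole of chromosome 14, 20.9% of 444 tested genes were higher and 12.8% lower, and the median was -0.031. Of the 15 largest rises and the 10 largest abundant rises, GNG2, PELI2, FERMT2, FUT8 and MAX lie on this chromosome. It held 444 of the 13621 tested genes. IFI27, one of the 15 largest falls, lies there too.

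**Figure D4:**
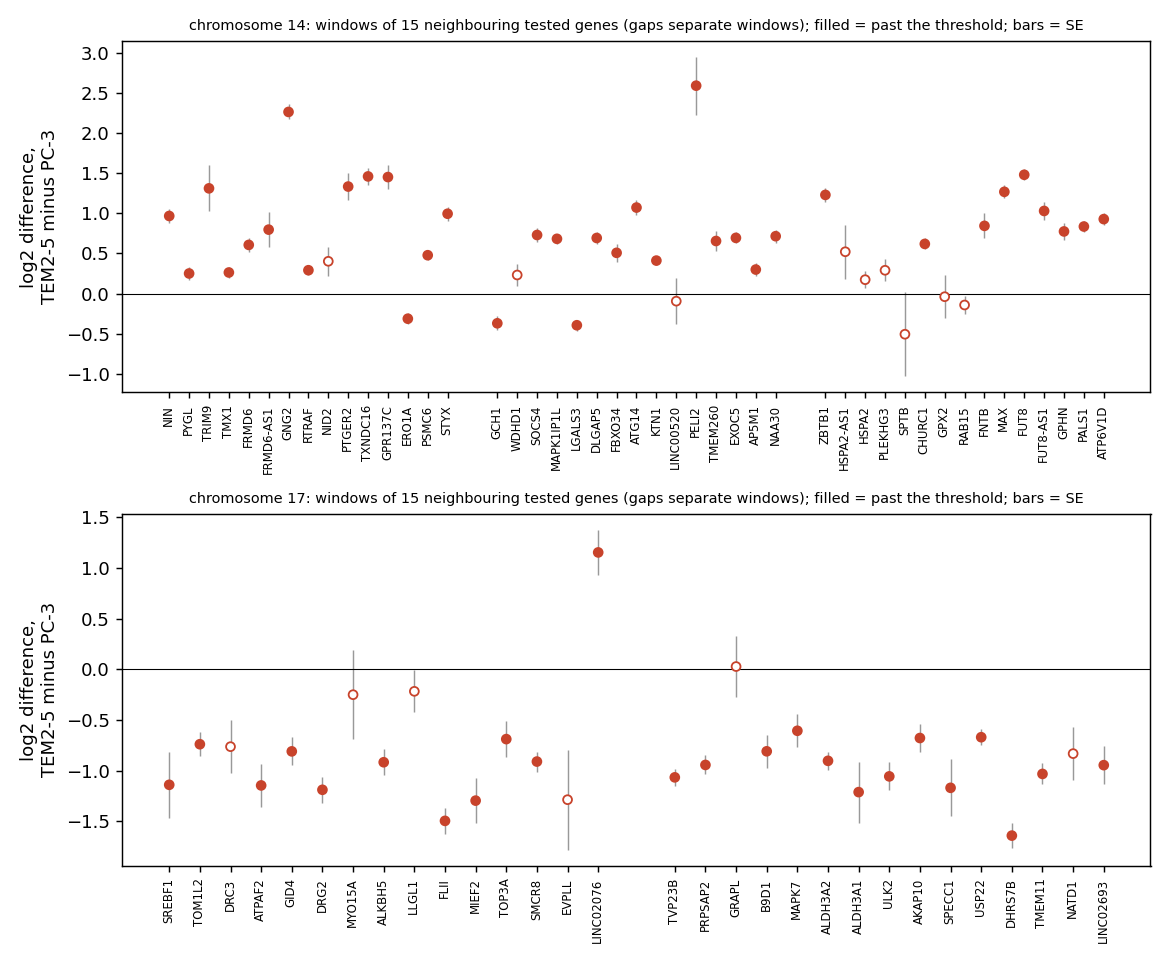
Difference TEM2-5 minus PC-3 (log2) with its SE for neighbouring tested genes in gene order, for 3 windows on chromosome 14 (top) and 2 on chromosome 17 (bottom); filled points passed the threshold. Most points of the chromosome 14 windows lie above 0, and 28 of the 30 genes of the chromosome 17 windows lie below it.

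By whole chromosome the largest lower share was that of chromosome 8, 20.9% of 493 tested genes. The lowest windows lay on chromosomes 4 and 17. The window from COX18 to BTC on chromosome 4 holds the CXCL chemokine cluster and had a median of -1.07, with 7 of 15 genes lower and 0 higher; it was -0.44 without the first TEM2-5 array. On chromosome 17 the window from TVP23B to LINC02693 had 13 of 15 genes lower (median -0.94) and that from SREBF1 to LINC02076 10 lower and 1 higher (median -0.91). DHRS7B, an enzyme of ether lipid synthesis, differed by -1.64, the actin-severing FLII by -1.50, the deubiquitinase USP22 by -0.67 and the aldehyde dehydrogenase ALDH3A2 by -0.90. The chromosome 14 windows were also higher in TEM4-18. Medians of TEM4-18 minus PC-3 in the windows starting at NIN, ZBTB1 and GCH1 were 0.79, 1.12 and 0.87. In the same windows TEM2-5 minus TEM4-18 had medians of -0.18, -0.31 and -0.35, so their rise was not particular to TEM2-5. TEM4-18 minus PC-3 had medians of -1.88 in the chromosome 4 window and, in the same order, -1.01 and -1.18 in the chromosome 17 windows. Without the second PC-3 array 8 genes of the first of these windows were lower, and its median was -0.92. 

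TEM2-5 was also tested directly against TEM4-18, in the same fit. Of the probe sets, 584 differed (1.78%). By gene, TEM2-5 was higher in 308 (2.26%) and lower in 67 (0.492%). The epithelial surface list held 14 of 28 genes that were higher in TEM2-5 than in TEM4-18, the epithelial regulators 10 of 18 and the tight junction list 7 of 21. For EMT transcription factors the counts were 0 higher and 0 lower of 9, with a median of 0.083. Without the first TEM2-5 array 136 genes were higher and 14 lower. The comparisons with PC-3 and with TEM4-18 share the TEM2-5 arrays, so that a chance deviation of those arrays enters both.

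In 13 genes (0.0954%) TEM2-5 was higher than both other lines and in 3 (0.022%) lower than both. PDGFRA, a receptor for platelet-derived growth factor, read 2904 and 2170 in TEM2-5, 1062 and 889 in PC-3 and 685 and 434 in TEM4-18. TEM2-5 exceeded PC-3 by 1.32 (SE 0.22, adjusted p = 0.00263) and TEM4-18 by 2.10 (SE 0.22, adjusted p = 0.000661). IGFBP5, another binding protein of insulin-like growth factors, was lowest in TEM2-5, at 1926 and 1681, with 6151 and 7029 in PC-3 and 4058 and 3964 in TEM4-18. Its differences were -1.84 from PC-3 (SE 0.11, adjusted p = 7.35e-06) and -1.13 from TEM4-18 (SE 0.11, adjusted p = 0.000486). For both genes, both differences passed whichever single array was left out. Without the trend PDGFRA missed the threshold against PC-3 (adjusted p = 0.0503) and TEM4-18 (adjusted p = 0.0759), and IGFBP5 against TEM4-18 (adjusted p = 0.0638).

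The other named genes of this kind lost at least 1 of the 2 calls when 1 array was left out. RELN, a secreted guidance protein, read 3656 and 2973 in TEM2-5, 1912 and 1853 in PC-3 and 374 and 398 in TEM4-18; its adjusted p against PC-3 was 0.0726 without the first TEM2-5 array. HEY1 exceeded TEM4-18 by 0.64, with an adjusted p of 0.295 without that array. The tetraspanin TSPAN8 read 810 and 875 in TEM2-5, 411 and 410 in PC-3 and 254 and 288 in TEM4-18, and its adjusted p was 0.126 against PC-3 and 0.112 against TEM4-18 without the second TEM2-5 array. NUDT3, a phosphohydrolase, passed on 1 of 5 tested probe sets. HCLS1, NAP1L3, SLC26A11, MAGED2, SLC5A3, TMEM95 and ADIRF had adjusted p-values against TEM4-18 of 0.1305 to 0.262 without the array that mattered most.

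**Figure D5:**
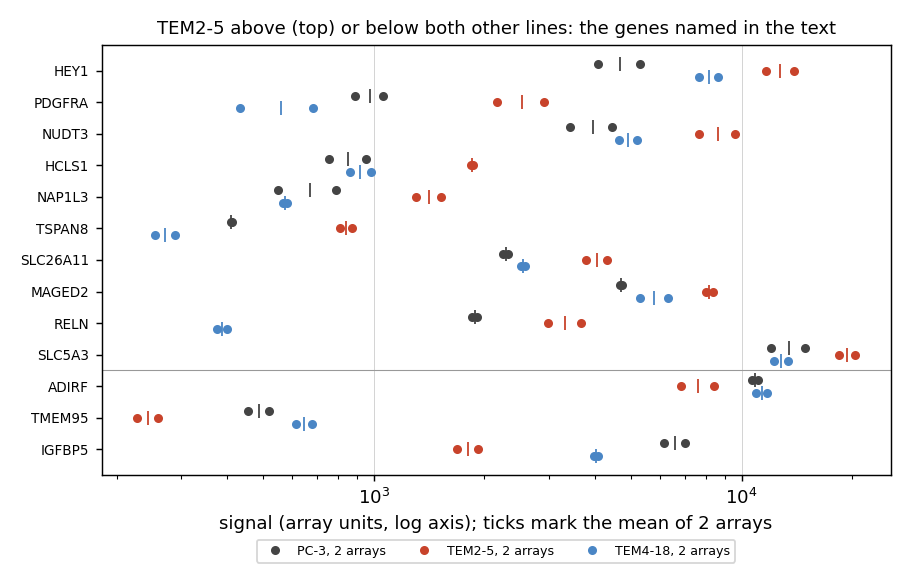
Signal on each array (array units, log axis; ticks at the means of 2 arrays) of the 10 named genes in which TEM2-5 (red) was above PC-3 (dark) and TEM4-18 (blue), and, below the line, the 3 in which it was below both. The TEM2-5 points lie apart from both other lines in each gene shown.

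The migration used endothelial cells, and markers of other cell types were read in every array. Of 20 endothelial markers on the array 11 lay below the filter on low signals, and 9 were tested. Of the tested markers 2 were higher and 0 lower, beside 8.98% and 10.1% over all tested genes. The same shares apply to the fibroblast and leukocyte counts below. Of the 20 markers, VWF lay in the low range, at 126 and 109 in PC-3 and 76.1 and 40.2 in TEM2-5. TIE1 did too, at 15.7 and 7.17 in TEM2-5. ESAM went the other way, from 267 and 291 in PC-3 to 527 and 454 in TEM2-5, and did not pass (adjusted p = 0.0526). The summed signal of the 20 markers was 4584 and 4788 in PC-3 and 6486 and 5760 in TEM2-5. KDR, a receptor for vascular endothelial growth factor, read 306 and 146 in PC-3 and 1243 and 1258 in TEM2-5 (5.54-fold; log2 2.29, SE 0.32, adjusted p = 0.000913). ROBO4 differed by 0.78 and had an adjusted p of 0.22 without the second TEM2-5 array. Fibroblast markers gave 4 of 12 tested genes higher (2 without the trend) and 1 lower, with summed signals of 25145 and 28104 in PC-3 and 54735 and 61009 in TEM2-5, most of it from COL1A1 and COL6A3. Of 17 leukocyte markers on the array 11 lay below the filter, and of the 6 tested 1 was higher and 1, LCP1, lower. Their summed signals were 13523 and 14678 in PC-3 and 8960 and 9513 in TEM2-5. The median marker read only 90.1 and 128 in PC-3 and 112 and 91.2 in TEM2-5, so the sums do not describe most markers. The part of other cells in the differences above was not tested.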

How the data were processed

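Total RNA of PC-3, TEM2-5 and TEM4-18 was hybridised to 2 expression arrays a line. The authors deposited 1 linear intensity for each probe set and array. The submitters' processing notes name MAS5 as the software. Their 2% trimmed mean was 1500.17 to 1500.18 on every array, so they were not normalized again. The genome build and MAS5 version are not given in the sources used here. Of 54675 probe sets, 62 were controls, 41091 carried 1 gene symbol of the platform annotation, 1801 several and 11783 none.

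Intensities were transformed to log2(value + 51.8), the 20th percentile of all values, which understates the change of low genes. Non-control probe sets with a mean over 6 arrays above 174, the 40th percentile, were kept whatever their gene symbols, which left 32768. A gene was its brightest single-symbol probe set. limma 3.58.1 (R 4.3.3; lmFit, eBayes with trend) was fitted to all 6 arrays, with 3 residual degrees of freedom and a median residual SD of 0.17, and adjusted by Benjamini-Hochberg at 0.05. An exact permutation test of 2 against 2 arrays cannot pass that threshold. The number of arrays limits the precision. The fit was tested on simulated data.

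The members and the gene lists were chosen with earlier results of these data known. Named genes were a set always given, the 15 largest rises and falls, the 10 largest among the top 5% of signal, up to 10 apart from both lines on each side, and in each list up to 5 changed genes a direction and 2 bright uncalled ones. For the second TEM2-5 array the title and the source name disagree on the replicate number, and the title was used. Same-numbered arrays shared little deviation by probe set (correlation of deviations 0.0625 to 0.0978), and the replicate number was left out of the main fit. The median signal was still higher on the first array of each line. It was 317 and 282 in PC-3, 310 and 281 in TEM2-5, and 296 and 267 in TEM4-18. Whether the replicate number stands for a shared handling step was not tested. Scan dates and detection calls were not used here. Promoters and names come from RefSeq tables (GRCh38.p14). The alternatives tried were 15 other settings.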

Additional observations from a re-analysis of the deposited data

Results flagged for a closer look

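The difference between the TEM2-5 and the TEM4-18 response, both against PC-3, equals the difference of TEM2-5 from TEM4-18, since both responses share the PC-3 arrays. It passed the threshold in limma's fit in 85 of 318 named genes, with TEM2-5 higher in 73 and lower in 12, beside 2.26% higher and 0.492% lower over all tested genes. Named genes were chosen in part for their differences, so these counts describe them only. All values are log2, TEM2-5 minus TEM4-18. The TEM4-18 mean lay under 174, so that the size depends on the added 51.8, for CDH1, CDH3, CRB3, ESRP1, EHF, ST14, C1orf116, CALB1, S100A9, S100P, CXCL16, IGFBP2, IL13RA2, NOTCH3, IFIH1, OAS1, ALPP and ALDH3A1.

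Among junction and keratin genes the difference was 4.79 for CDH1, 3.16 for CDH3, 2.19 for CLDN7, 1.89 for LSR, 1.88 for ITGB8, 1.52 for OCLN, 1.48 for CRB3, 1.41 for ITGB4, 1.39 for CXADR, 1.29 for DSP, 1.03 for JUP, 0.99 for CLDN11, 0.61 for LAMB3 and 0.46 for KRT8. For other epithelial genes and their regulators it was 4.56 for EHF, 4.51 for ESRP1, 3.09 for ST14, 2.57 for CD24, 2.47 for C1orf116, 2.47 for EPCAM, 2.25 for S100A14, 1.98 for OVOL2 and 1.22 for ZNF165. S100, calcium-binding and abundant secreted proteins gave 5.77 for CALB1, 4.32 for PI3, 3.64 for LCN2, 3.63 for S100A9, 3.34 for S100P, 2.85 for CXCL8, 2.77 for THBS1, 2.16 for SLPI, 2.01 for LXN, 1.92 for CXCL16, 1.42 for CXCL5, 1.37 for CXCL6, 1.30 for S100A2 and 0.81 for CXCL1. In growth factors, their receptors and binding proteins the values were 3.53 for TGFA, 3.10 for IGFBP2, 2.93 for RELN, 2.42 for IL13RA2, 2.10 for PDGFRA, 1.79 for GDF15, 1.55 for FST, 1.52 for NOTCH3, 1.47 for TSPAN8, 1.05 for EFNB2, 0.79 for INHBA and 0.64 for HEY1. The proteases, interferon-induced and antigen presentation genes had 1.71 for KLK5, 1.31 for IFIH1, 1.29 for CST6, 1.17 for KLK6, 1.08 for OAS1, 0.76 for HLA-B and 0.73 for HLA-C.

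The other genes that were higher in TEM2-5 gave 2.26 for LNCAROD, 2.26 for ALPP, 1.99 for ALDH3A1, 1.28 for ATF3, 1.22 for NAP1L3, 1.17 for NNMT, 1.07 for COL4A6, 0.97 for HCLS1, 0.94 for ALDH1A3, 0.80 for NUDT3, 0.74 for SLC7A11, 0.65 for SLC26A11, 0.59 for SLC5A3, 0.52 for IER3, 0.51 for GSTM3, 0.50 for MAGED2 and 0.34 for EEF1A2. The 12 genes that were lower in TEM2-5 than in TEM4-18 gave -0.31 for EMP1, -0.34 for PALS1, -0.34 for ZNF503, -0.41 for FUT8, -0.46 for NT5E, -0.49 for GNG2, -0.58 for ADIRF, -0.88 for ACKR3, -1.13 for IGFBP5, -1.25 for TMEM95, -1.37 for CLEC2B and -1.63 for TENM1. Of these, IGFBP5, TMEM95 and ADIRF were also lower than in PC-3. Without the first TEM2-5 array 136 genes were higher and 14 lower over all tested genes, and without the second 163 and 11.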

How the results depend on the processing

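Of 265 changes of named genes, 142 passed the threshold under all 15 other settings and 123 missed it under at least 1. The costliest setting was the fit without the mean-variance trend, which lost 95 of these calls and moved 34 of 66 list counts by over 1.5 times. Leaving out single arrays of TEM2-5 cost 61 and 67 calls and single arrays of PC-3 41 and 53, no filter on low values cost 47 and averaging probe sets 38, while quantile normalization cost 1. Of the directions, 2 turned when all probe sets of a gene were averaged: CD44 was then lower in TEM2-5 (log2 -0.46, adjusted p = 0.00917), and HLA-E was higher but did not pass (log2 0.058, adjusted p = 0.747). Without the mean-variance trend, 2320 probe sets, 453 higher and 581 lower genes changed against PC-3, and 125, 77 and 1 against TEM4-18. Without the filter on low values the counts against TEM4-18 were 300 probe sets, 176 higher and 25 lower genes. With 1 array left out, 2825 to 5135 probe sets changed against PC-3, with 685 to 1166 genes higher and 761 to 1369 lower. Against TEM4-18 these ranges were 218 to 550 probe sets, 136 to 273 higher genes and 8 to 79 lower genes. With the replicate block, 6429 probe sets, 1460 higher and 1681 lower genes changed against PC-3, and 874, 421 and 127 against TEM4-18. The block was left out of the main fit, and it cost 0 of the named calls. MAS5 signals near background are noisy, and fitted folds of the dimmest genes depend on the pseudocount: FAM107A differed by 3.45, and by 4.60 with a pseudocount of 1.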
